A study of Mus musculus with 48 samples.

Results

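Transcripts of 9 genes known from the epithelium of the choroid plexus were followed library by library in RNA-sequencing data of mouse hippocampal Cornus Ammonis (CA) tissue. The members were fixed by name (*Ttr*, *Folr1*, *Kcne2*, *Slc4a5*, *Kcnj13*, *F5*, *Enpp2*, *Clic6* and *Otx2*) and all 9 were found among the 24421 genes of the count table. The study asked how the hippocampal transcriptome differs after loss of the cannabinoid receptor CB1 from glutamatergic or from GABAergic neurons, basally and upon exploration of an open field. It comprises 48 libraries of male mice, 1 mouse per library, in 8 groups. In the Glu-CB1 line (nex-cre x CB1f/f), Cre recombinase is driven by elements of *Nex* and removes CB1 from glutamatergic neurons, and the groups held 5 Glu-CB1-WT and 7 Glu-CB1-KO mice in the basal state and again 5 and 7 after the open field. In the GABA-CB1 line (dlx5/6-cre x CB1f/f), elements of *Dlx5/6* drive Cre, which removes CB1 from GABAergic neurons, and the groups held 6 GABA-CB1-WT and 6 GABA-CB1-KO mice without exposure and 7 and 5 after the open field. All mice are labelled as 8 weeks old (8 to 10 weeks in the protocol), the basal groups had no further treatment, and the open field groups spent 5 min in the arena. CB1-WT mice were littermates of the CB1-KO mice, and neither Cre line is directed at the choroid plexus. The text of the study gives the sizes of the GABA-CB1 open field groups the other way round, and the labels, which *Cnr1* fits in each library, were followed.

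The choroid plexus is a folded tissue of epithelial cells around a core of vessels and stroma that hangs into the brain ventricles and secretes cerebrospinal fluid. In the lateral ventricle it lies along the edge of the hippocampus. Its epithelium is the main place of transthyretin synthesis in the brain, and it holds ion transporters and channels at high density. *Ttr* encodes transthyretin, the carrier of thyroid hormone and of retinol-binding protein. *Folr1* encodes a folate receptor, *Slc4a5* a sodium bicarbonate cotransporter, *Kcnj13* an inward rectifier potassium channel and *Kcne2* a regulatory subunit of potassium channels. *F5* encodes coagulation factor V, *Enpp2* autotaxin, the enzyme that makes lysophosphatidic acid, *Clic6* a protein of the chloride intracellular channel family, and *Otx2* a homeodomain transcription factor needed for the formation of the plexus. *Enpp2* is also strongly expressed by oligodendrocytes, which CA tissue itself holds.

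Promoter sequences were taken from RefSeq (GRCm38.p6, the patch release of the build mm10 on which the reads were counted). A promoter ran from 250 bases before to 50 bases after a gene's start. Promoters of 5 of the 9 members were examined, with 9 promoters in all. *Ttr*, *Folr1*, *Enpp2* and *Clic6* were not among these 5, and their promoters were not searched. The promoters are shown because the members rose together in some libraries. The letters TAATCC, the core motif bound by Otx2 and related homeodomain proteins, were searched on both strands and stood in 1 of these 9 promoters, some of which overlap each other, against 7.06% of all 32851 mouse promoters in the table. The letters TATAAA, those of the TATA box, were also searched on both strands and at any position. They stood in 3 of the 9 promoters, against 13.6% of all. Their start was at position -29 in *Kcnj13*, at -192 in 1 promoter of *Otx2* and, read on the opposite strand, at -127 in *Slc4a5*. The motifs do not overlap in these sequences. The promoter with TAATCC was one of the 4 listed for *Otx2* itself (chr14:48665060-48665359, minus strand), where capitals mark the motif read on the opposite strand, starting at position -211 from the transcript start to which this promoter belongs, which lies inside the annotated gene. The promoter of *Kcnj13* (chr1:87394680-87394979, minus strand) held a TATA box at position -29, in capitals. A promoter of *Kcne2* (chr16:92292139-92292438, plus strand) held neither, and no letters are in capitals.
Otx2: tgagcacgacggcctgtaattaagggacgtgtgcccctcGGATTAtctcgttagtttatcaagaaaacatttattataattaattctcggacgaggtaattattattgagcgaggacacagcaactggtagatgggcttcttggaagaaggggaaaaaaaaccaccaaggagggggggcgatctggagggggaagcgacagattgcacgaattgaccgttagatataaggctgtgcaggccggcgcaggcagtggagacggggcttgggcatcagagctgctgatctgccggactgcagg
Kcnj13: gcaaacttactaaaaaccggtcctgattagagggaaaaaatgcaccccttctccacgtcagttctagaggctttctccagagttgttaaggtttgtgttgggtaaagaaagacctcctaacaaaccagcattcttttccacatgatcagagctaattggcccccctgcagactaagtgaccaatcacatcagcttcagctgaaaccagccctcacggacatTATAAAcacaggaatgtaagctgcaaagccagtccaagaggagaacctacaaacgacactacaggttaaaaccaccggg
Kcne2: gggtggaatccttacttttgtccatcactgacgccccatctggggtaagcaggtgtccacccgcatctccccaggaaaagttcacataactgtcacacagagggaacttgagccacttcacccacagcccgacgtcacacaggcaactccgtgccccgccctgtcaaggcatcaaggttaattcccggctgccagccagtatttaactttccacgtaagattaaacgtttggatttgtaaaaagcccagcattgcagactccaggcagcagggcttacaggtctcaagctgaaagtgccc

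Between 25892654 and 34091080 reads were counted on genes per library, and between 17621 and 17967 genes had a count. *Cnr1*, which encodes CB1, fitted the labels of all groups, with a lowest CB1-WT library of 310 CPM (read counts scaled to a common library size, with TMM normalization over all 48 libraries) and a highest CB1-KO library of 250.2 CPM. Its log2 fold change in CB1-KO against CB1-WT mice ran from -0.72 (Glu-CB1, open field, adjusted p = 7.59e-06) to -1.45 (GABA-CB1, open field, adjusted p = 6.84e-07), by the edgeR quasi-likelihood test with Benjamini-Hochberg adjustment.

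*Ttr* separated 4 libraries from the rest. In 44 libraries its level ran from 11.8 to 75.6 CPM with a median of 28.5 CPM. The library Glu-CB1-KO open field replicate 4 had 234 CPM, Glu-CB1-KO basal replicate 6 had 567.5 CPM, GABA-CB1-WT basal replicate 3 had 1386 CPM and GABA-CB1-KO open field replicate 4 had 3870 CPM. These values are 8.21, 19.9, 48.7 and 136 times the median of the other 44 libraries. Each of the 4 libraries belongs to a different group, of both genotypes, both states and both lines. A limit of 200 CPM of *Ttr* was set after the values were seen to tell the 4 libraries from the other 44, so their levels are given as a description, and each comparison below is given with and without them.

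The 4 libraries were not set apart by depth. Their totals were 31977425, 33875879, 31743232 and 29953436 reads in the order above, and 17860, 17934, 17967 and 17873 genes had a count, the third being the highest number of all 48. The 9 members took up 0.0560%, 0.102%, 0.233% and 0.543% of the counts of these libraries, against 0.0175% to 0.0307% in the other 44. *Cnr1* stood at 213, 227, 310 and 101 CPM in them, on the side of its label in each case. More choroid plexus cells in a sample and more RNA of these genes per cell cannot be told apart in bulk tissue.

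**Figure D1:**
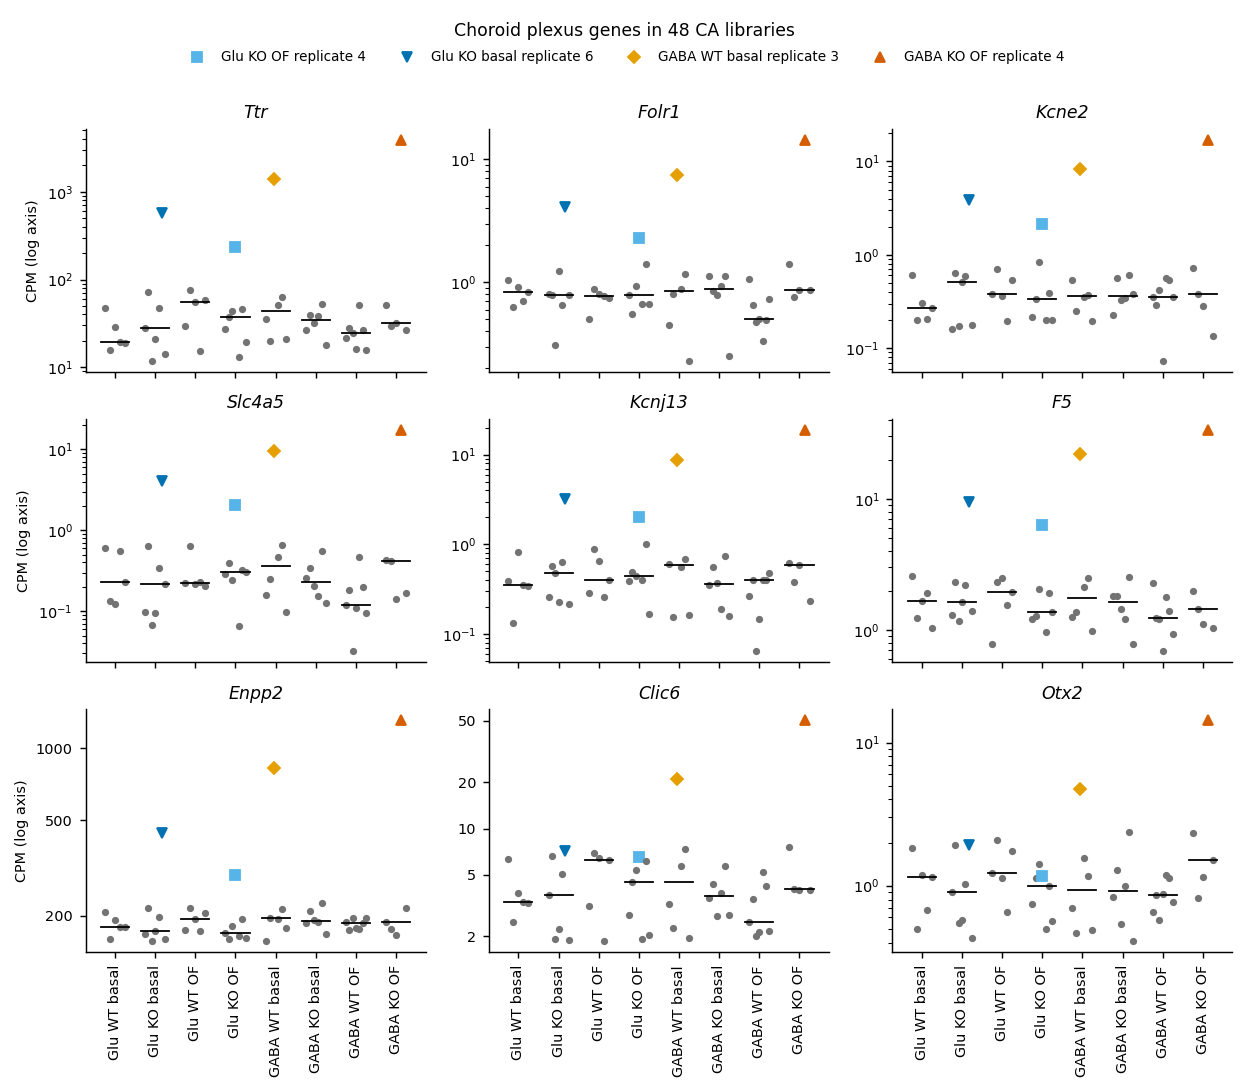
Level of each of the 9 genes (y axis, CPM on a log axis) in the 48 libraries by group (x axis; OF, open field), where grey points are single libraries, coloured symbols the 4 libraries with over 200 CPM of *Ttr*, and black lines group medians. The coloured symbols stand far above the grey points for *Ttr*, from 234 to 3870 CPM against at most 75.6 CPM, whereas for *Clic6* and *Otx2* those of the 2 Glu-CB1 libraries lie within the range of all grey points.

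Within the groups, the level of *Ttr* varied between mice even without the 4 libraries, from 11.8 to 71.2 CPM in Glu-CB1-KO basal as the widest and from 26.9 to 51.9 CPM in GABA-CB1-KO open field as the narrowest by ratio. The 5 Glu-CB1-WT mice in the basal state had 15.8, 18.9, 19.4, 28.99 and 47.3 CPM of *Ttr*, and the 7 Glu-CB1-KO mice had 11.8 CPM at the lowest, 27.98 CPM at the median and 567.5 CPM at the highest. After the open field, the 5 Glu-CB1-WT mice had 15.3, 29.4, 55.7, 58.6 and 75.6 CPM, and the 7 Glu-CB1-KO mice had 13.3 CPM at the lowest, 37.3 CPM at the median and 234 CPM at the highest. The groups overlapped in both states. In the GABA-CB1 line, the 6 CB1-WT mice in the basal state had 19.8, 43.3 and 1386 CPM at the lowest, the median and the highest, and the 6 CB1-KO mice had 18.04, 34.8 and 52.8 CPM. After the open field, the 7 CB1-WT mice had 15.7, 24.8 and 51.2 CPM, and the 5 CB1-KO mice had 26.9, 29.9, 31.8, 51.9 and 3870 CPM. The groups of this line overlapped as well, in both states. The group medians of *Ttr* ran in order from Glu-CB1-WT basal (19.4 CPM) through GABA-CB1-WT open field, Glu-CB1-KO basal, GABA-CB1-KO open field, GABA-CB1-KO basal, Glu-CB1-KO open field and GABA-CB1-WT basal to Glu-CB1-WT open field (55.7 CPM), and neighbours in this order overlapped in their ranges. Without the 4 libraries, the group means ran from 26.1 ± 12.8 CPM (SD, n = 5) in Glu-CB1-WT basal to 46.9 ± 24.2 CPM (SD, n = 5) in Glu-CB1-WT open field.

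Per length, *Enpp2* and *Ttr* were the most abundant of the 9 transcripts in the 44 libraries. The median level per kilobase of exon was 50.1 CPM for *Enpp2* and 23.3 CPM for *Ttr*. *Clic6* followed with 0.970 CPM per kilobase, *Folr1* with 0.559, *Otx2* with 0.356, *Kcnj13* with 0.293, *Kcne2* with 0.207, *F5* with 0.191 and *Slc4a5* with 0.0428 CPM per kilobase. In the library with the most *Ttr*, GABA-CB1-KO open field replicate 4, *Ttr* reached 3170 CPM per kilobase and *Enpp2* 353 CPM per kilobase, so that *Ttr* was then above *Enpp2*. The counts behind the low members were small in the 44 libraries, with a median of 6 reads for *Slc4a5*, 11 for *Kcne2*, 12 for *Kcnj13*, 23.5 for *Folr1*, 29 for *Otx2*, 43 for *F5* and 113.5 for *Clic6*, against 847 for *Ttr* and 5569 for *Enpp2*.

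The ion channels and transporters rose with *Ttr* in all 4 libraries. *Kcne2* had a median of 0.351 CPM and at most 0.827 CPM in the 44 libraries, and 2.13, 3.86, 8.26 and 16.9 CPM in Glu-CB1-KO open field replicate 4, Glu-CB1-KO basal replicate 6, GABA-CB1-WT basal replicate 3 and GABA-CB1-KO open field replicate 4. *Slc4a5*, with a median of 0.219 CPM and at most 0.649 CPM, stood at 2.07, 4.04, 9.41 and 17.2 CPM in the same order. *Kcnj13*, with a median of 0.395 CPM and at most 0.998 CPM, stood at 2.04, 3.19, 8.66 and 18.7 CPM. The order of the 4 libraries was thus that of *Ttr* for each of these 3 genes, and the folds over the median in the library with the most *Ttr* were 48.1, 78.4 and 47.4.

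The receptor, the clotting factor and the secreted enzyme followed the same order of libraries. *Folr1* had a median of 0.786 CPM and at most 1.42 CPM in the 44 libraries, and 2.29, 4.07, 7.49 and 14.3 CPM in the 4 libraries. *F5* had a median of 1.42 CPM and at most 2.57 CPM, and 6.28, 9.43, 21.9 and 33.4 CPM in the 4 libraries. *Enpp2*, with a median of 185 CPM and a narrow range of 157 to 226 CPM, stood at 297, 442, 824 and 1303 CPM. Its fold over the median was the lowest of the 9 genes in both GABA-CB1 libraries, at 4.46 and 7.05, and in the Glu-CB1 libraries it was 1.61 and 2.39.

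*Clic6* and *Otx2* behaved differently in the 2 libraries of the Glu-CB1 line. *Clic6* had a median of 3.63 CPM and a range of 1.85 to 7.56 CPM in the 44 libraries, and its 6.52 and 7.20 CPM in Glu-CB1-KO open field replicate 4 and Glu-CB1-KO basal replicate 6 lay inside that range. In GABA-CB1-WT basal replicate 3 and GABA-CB1-KO open field replicate 4 it rose to 21.04 and 50.3 CPM. *Otx2* had a median of 0.952 CPM and a range of 0.408 to 2.38 CPM, and stood at 1.17 and 1.93 CPM in the 2 Glu-CB1 libraries, again within the range, and at 4.70 and 14.3 CPM in the 2 GABA-CB1 libraries. Glu-CB1-KO basal replicate 6 thus had 19.9 times the median of *Ttr* with 1.98 times that of *Clic6* and 2.02 times that of *Otx2*.

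**Figure D2:**
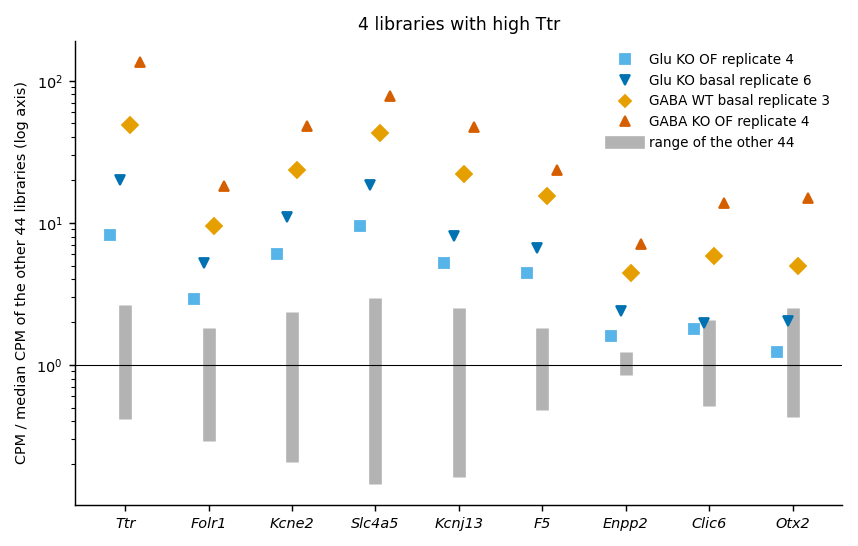
Level of each gene in the 4 libraries with high *Ttr* divided by its median in the other 44 libraries (y axis, log axis), with symbols for the 4 libraries and grey bars for the range of the 44. The folds of GABA-CB1-KO open field replicate 4 run from 7.05 for *Enpp2* to 136 for *Ttr*, and *Clic6* and *Otx2* of the 2 Glu-CB1 libraries fall within the grey bars.

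Counted over the members, 7 of 9 lay above every one of the other 44 libraries in Glu-CB1-KO open field replicate 4, where 2.01% of the 15570 genes tested did so, and 7 of 9 in Glu-CB1-KO basal replicate 6, where 2.76% did. All 9 lay above them in GABA-CB1-WT basal replicate 3 (background 4.69%) and in GABA-CB1-KO open field replicate 4 (background 9.14%). The libraries were chosen on *Ttr*, which is therefore 1 of the members counted by construction. Of a further list of choroid plexus genes, 28 were expressed highly enough to be tested, and 10, 17, 25 and 26 of them lay above the 44 libraries in the order of rising *Ttr*. *Tmem72*, *Aqp1*, the water channel of the plexus epithelium, and *Cldn2*, a claudin of its tight junctions, were among them in all 4 libraries. In GABA-CB1-KO open field replicate 4 these 3 genes reached 70.4, 21.5 and 22.7 times their medians. *Kl*, which encodes klotho, had a median of 30.1 CPM and reached 3.49 times that value in the same library.

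Markers of other cell types moved with the members in some of the 4 libraries and not in others. Ciliated ependyma, which lines the ventricles, had 12 of 16 genes above the other libraries in Glu-CB1-KO basal replicate 6 (summed level 77.6 CPM, against 23.5 to 72.4 CPM in the 44 libraries) and 6 of 16 in GABA-CB1-KO open field replicate 4 (64.1 CPM), but 0 of 16 in both others. Fibroblasts of meninges and stroma had 12 of 14 genes above in GABA-CB1-KO open field replicate 4 (324 CPM, against 92.6 to 192 CPM) and 9 of 14 in GABA-CB1-WT basal replicate 3 (223 CPM), but 1 and 0 of 14 in Glu-CB1-KO basal replicate 6 and Glu-CB1-KO open field replicate 4, and of the 3 collagen genes of this list, *Col1a2* was above the 44 libraries in both GABA-CB1 libraries and *Col1a1* and *Col3a1* in GABA-CB1-KO open field replicate 4. GABA-CB1-WT basal replicate 3 also had 4 of 6 markers of dentate granule cells above the others (347 CPM, against 127 to 310 CPM) and 3 of 9 markers of the thalamus (183 CPM, against 128 to 178 CPM). GABA-CB1-KO open field replicate 4 had 2 of 9 thalamus markers above (173 CPM). Vascular endothelium had 3 of 9 genes above in GABA-CB1-KO open field replicate 4 and 0 of 9 in the other 3 libraries, whereas the only red blood cell gene tested was above in none. Markers of oligodendrocytes (3960.3 to 4842 CPM in the 4 libraries, against 3176 to 5324 CPM) and of CA pyramidal cells (1205 to 1376 CPM, against 1123 to 1503 CPM) lay within the range of the 44 libraries in their sums. The part of these cell types in the levels of the members was not tested.

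The 4 libraries carried the members in somewhat different ratios to *Ttr*. For each gene, the level above the median of the 44 libraries was divided by that of *Ttr*, so that the values are CPM of the gene per 100 CPM of *Ttr* gained. *Slc4a5* gave 0.902, 0.708, 0.677 and 0.442 in the order of rising *Ttr*, *Kcne2* gave 0.868, 0.650, 0.583 and 0.431, and *Kcnj13* gave 0.802, 0.519, 0.609 and 0.477. *Folr1* fell from 0.732 to 0.352 between the ends of this order, *F5* from 2.36 to 0.834 and *Enpp2* from 54.7 to 29.1. Values per *Ttr* were thus lower in GABA-CB1-KO open field replicate 4 than in Glu-CB1-KO open field replicate 4 for these 6 genes. *Clic6* gave 1.41, 0.662, 1.28 and 1.21, and *Otx2* 0.108, 0.181, 0.276 and 0.347, so that only *Otx2* among the 8 genes rose along the order.

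In the 44 libraries without a large rise, 7 of the 8 other members were correlated with *Ttr* across libraries. Since 4 libraries stood apart, no test of correlation was run over all 48. On log2 CPM with a prior count of 2, Pearson's r with *Ttr* over 44 libraries was 0.92 for *Clic6* (Spearman's rho 0.91), 0.80 for *Otx2* (0.78), 0.72 for *Kcne2* (0.73), 0.69 for *F5* (0.68), 0.67 for *Slc4a5* (0.63), 0.62 for *Enpp2* (0.57) and 0.62 for *Kcnj13* (0.66). The permutation p of r, adjusted over the 15569 other genes by Benjamini-Hochberg, was 0.0156 for the first 5, 0.0415 for *Enpp2* and 0.0222 for *Kcnj13*, and the raw p of the first 5 was 1e-05, the smallest that 100000 permutations can give. *Folr1* had r = 0.36 and rho = 0.42, with an adjusted permutation p of 0.234 for r. Of all genes, 15 or 0.0963% passed, 12 of them with a positive r, and the 5 of these 12 that are not members were *Tmem72*, *Calml4*, *Krt18*, *Prr32* and *1810032O08Rik*. The libraries share the protocols of dissection and amplification.

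The correlations were recomputed without the extreme libraries and within each line. Without the 2 libraries farthest from the median of *Ttr* (Glu-CB1-WT open field replicate 2 and Glu-CB1-KO basal replicate 2), r was 0.92 for *Clic6*, 0.77 for *Otx2*, 0.68 for *Kcne2*, 0.66 for *F5*, 0.61 for *Slc4a5*, 0.58 for *Kcnj13* and 0.56 for *Enpp2*. Within the lines, with 22 libraries each, r of *Clic6* was 0.95 in the Glu-CB1 and 0.89 in the GABA-CB1 line, and that of *Otx2* 0.89 and 0.71. For *Enpp2* r was 0.84 among Glu-CB1 and 0.29 among GABA-CB1 mice, and this difference was not tested. *Enpp2* and *Kcnj13* no longer passed once group means were removed (adjusted permutation p of r 0.0584 for both), and *Enpp2* did not pass by rho (0.0759).

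*Clic6* and *Otx2* gained far more per unit of *Ttr* in the 44 libraries than in the 4. The slope of a straight line through the 44 libraries was 9.71 CPM of *Clic6* per 100 CPM of *Ttr* (SE 0.596, 95% interval 8.51 to 10.9), 6.89 times the highest of the 4 values for gain in the 4 libraries (1.41). For *Otx2* the slope was 2.45 (SE 0.297, 1.85 to 3.05), 7.07 times the highest gain (0.347). For *Kcne2* the slope was 0.774 (SE 0.119) against a highest gain of 0.868, for *Slc4a5* 0.751 (SE 0.114) against 0.902, for *Kcnj13* 0.860 (SE 0.152) against 0.802 and for *F5* 2.40 (SE 0.333) against 2.36. For *Folr1* it was 0.591 (SE 0.241) against 0.732, and for *Enpp2* 71.0 (SE 12.97) against 54.7. The slopes of 6 genes thus lay between 0.808 and 1.30 times the highest gain, and those of *Clic6* and *Otx2* far above it. The lowest gain lay below the 95% interval of the slope for *Kcne2* (0.431 against 0.534 to 1.01), *Slc4a5* (0.442 against 0.522 to 0.981) and *Kcnj13* (0.477 against 0.554 to 1.17). It did so too for *F5* (0.834 against 1.73 to 3.07) and *Enpp2* (29.1 against 44.8 to 97.2), but not for *Folr1* (0.352 against 0.105 to 1.08). Among the other choroid plexus genes that passed the correlation, *Calml4*, *Prr32* and *Krt18* had slopes of 9.45, 7.71 and 6.00 times their highest gain, and *Tmem72* of 0.806 times. The intervals cover the scatter of the 44 libraries and the genes were noted after their values were seen.

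**Figure D3:**
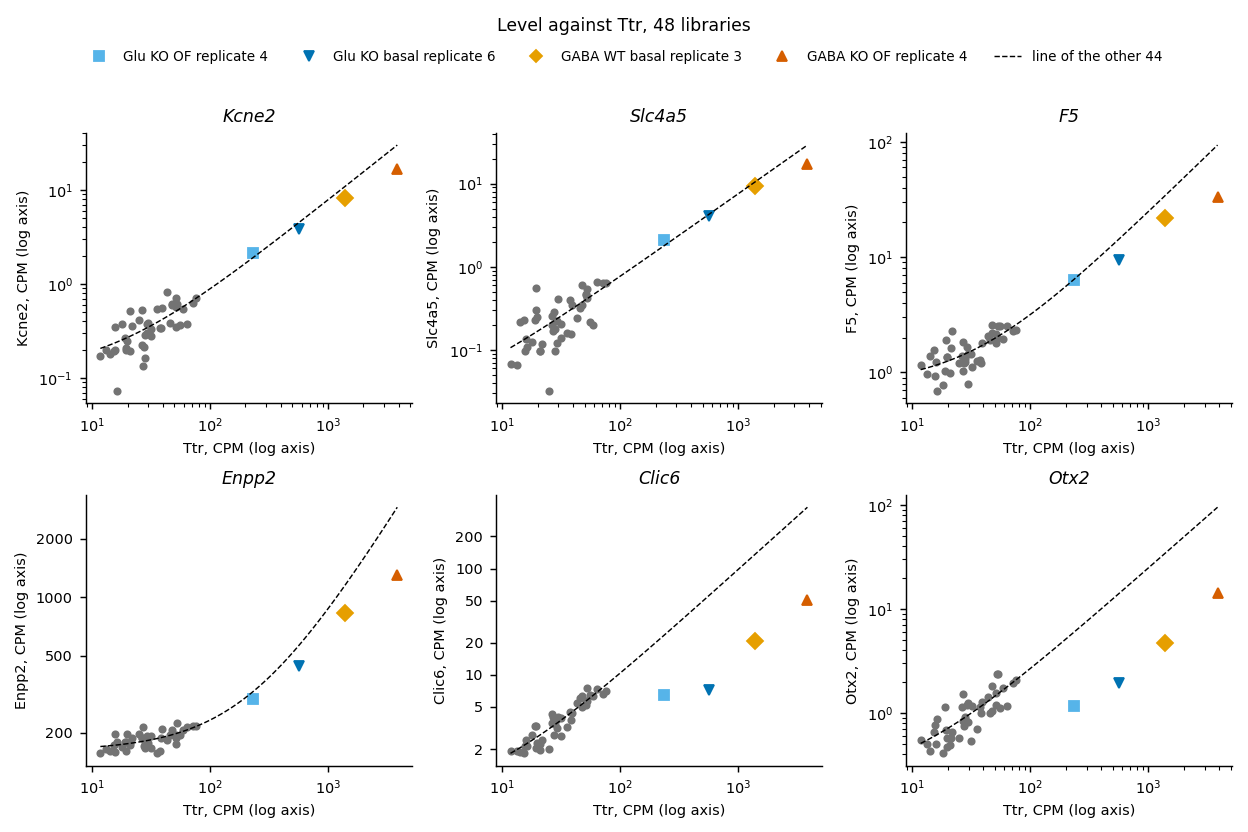
Level of 6 genes (y axis, CPM, log axis) against that of *Ttr* (x axis, CPM, log axis), with grey points for 44 libraries, coloured symbols for the 4 libraries with high *Ttr* and a dashed straight line fitted to the 44 on the linear scale and drawn on. The coloured symbols of *Clic6* (slope of the line 9.71 CPM per 100 CPM of *Ttr*) and *Otx2* (slope 2.45) fall far below the line, and those of *Kcne2* (slope 0.774) lie nearer to it.

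*Kcne2* (chr16:92292389-92298133, plus strand) and *Clic6* (chr16:92498147-92541241, plus strand) are near each other on mm10, where they lie 200014 bases apart, with 7 annotated genes between them. The genes between them did not share the rise of *Kcne2*. *Rcan1*, the most abundant of them, had a median of 51.3 CPM in the 44 libraries and 49.8 to 54.95 CPM in the 4 libraries, and *Smim11* a median of 6.71 CPM and 5.54 to 7.90 CPM in the 4. *Kcne1*, the paralog of *Kcne2* in this stretch, did not exceed 0.100 CPM in the 44 libraries nor 0.0309 CPM in the 4. The one with a rise, *4930563D23Rik*, reached at most 0.131 CPM.

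The spread between mice was wide for all members over 48 libraries, and that of *Enpp2* was near the median of all genes without the 4 libraries. The SD of log2 CPM with group means removed was 1.62 for *Ttr* over 48 libraries, the rank of 5 among 15570 genes, against a median of 0.118 over all genes. It was 1.47 for *Slc4a5* (rank 8), 1.32 for *Kcne2* (rank 10), 1.30 for *Kcnj13* (rank 14) and 1.08 for *F5* (rank 27). Without the 4 libraries, the SD of *Ttr* was 0.72 (rank 73) and that of *Slc4a5* 0.76 (rank 64), whereas that of *Enpp2* fell from 0.57 (rank 278) to 0.14 (rank 6374), close to the median of 0.116 over all genes. Log2 values of *Slc4a5*, *Kcne2* and *Kcnj13* rest on few reads in the 44 libraries, and their SD includes this counting error.

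Genes of the further choroid plexus list were frequent among those most similar to *Ttr* over all 48 libraries. That list was chosen with earlier results of these data known and holds 28 of the 15570 genes tested. By Pearson's r among genes with a mean of at least 1 CPM, which here rests on the 4 libraries and is given without a test, the 20 nearest other genes had r of 0.78 to 0.91, and 12 of the 20 are on the further list of choroid plexus genes. They were *1500015O10Rik*, *Rdh5*, *Cldn2*, *Kl*, *Col8a1*, *Abca4*, *Sostdc1*, *Trpv4*, *Slc4a2*, *Slc2a12*, *Ace* and *Calml4*, joined by *Col9a3*, *Sulf1*, *Igfbp2*, *Cab39l*, *Pcolce*, *Igf2*, *Itpripl1* and *Sema3b*. Of the latter, *Igfbp2* and *Igf2* are on the list for fibroblasts of meninges and stroma. *1500015O10Rik* came first (r = 0.91), followed by *Rdh5*, a retinol dehydrogenase (0.89). Of these 20 genes, 4 were also among the 20 nearest over the 44 libraries.

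Turning to the comparisons of genotypes, no member was called in any of them by the edgeR quasi-likelihood test with Benjamini-Hochberg adjustment over all genes at 0.05. For loss of CB1 from glutamatergic neurons in the basal state, 0 of 9 members were called (0.0198% of 15138 genes were). In edgeR, 1 of 9, *Ttr*, had an unadjusted p under 0.05, as did 3.57% of all genes. *Ttr* was 2.06 ± 0.91 (SE) on the log2 scale in Glu-CB1-KO against Glu-CB1-WT mice, with adjusted p = 0.999 (edgeR quasi-likelihood test). Without Glu-CB1-KO basal replicate 6 it was 0.31 ± 0.43 with an adjusted p of 1.00 (edgeR). The other 8 members lay between 0.01 (*Otx2*) and 1.51 (*Kcne2*) with that library, and 1 of the 7 members still tested was above 0 without it. *Kcne2* and *Slc4a5* were too low to be tested without that library. DESeq2 called 0 of 9.

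After the open field, Glu-CB1-KO and Glu-CB1-WT mice differed in 0 of the 8 members tested (0.272% of 15078 genes were called), 0 of 8 had an unadjusted p under 0.05 in edgeR, and DESeq2 called 0 of 9. *Slc4a5* was too low to be tested. *Ttr* was 0.36 ± 0.60 (SE) on the log2 scale in the KO mice, and -0.59 ± 0.36 without Glu-CB1-KO open field replicate 4, so that 1 library turned its sign. Without that library, 1 of 8 members was above 0, and *Enpp2* was at -0.16 ± 0.07 with adjusted p = 0.648 (edgeR quasi-likelihood test).

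For loss of CB1 from GABAergic neurons in the basal state, 0 of 8 members were called (0.245% of 15082 genes were), and all 8 were below 0 on the log2 scale. *Ttr* was -2.94 ± 1.00 (SE), with adjusted p = 0.447 (edgeR quasi-likelihood test), *Kcnj13* -2.19 ± 0.94, *Kcne2* -2.01 ± 0.94 and *F5* -1.65 ± 0.74, and these 4 had an unadjusted p under 0.05, as did 8.16% of all genes. The high level on the CB1-WT side came from GABA-CB1-WT basal replicate 3. Without it *Ttr* was -0.15 ± 0.31, *Kcne2* 0.26 ± 0.31 and *Kcnj13* -0.14 ± 0.45, 4 of 8 members were above 0 and 0 of 8 had an unadjusted p under 0.05. DESeq2 gave an adjusted p for 3 members and called 0 of them.

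After the open field, all 8 members tested were above 0 in GABA-CB1-KO against GABA-CB1-WT mice, and 0 of 8 were called (0.0199% of 15097 genes were). All 8 had an unadjusted p under 0.05, as did 2000 of all 15097 genes (13.2%). *Ttr* was 4.92 ± 1.17 (SE) on the log2 scale, with adjusted p = 0.177 (edgeR quasi-likelihood test), *Kcnj13* 3.72 ± 1.03, *Kcne2* 3.29 ± 1.01, *Folr1* 2.55 ± 0.72, *F5* 2.50 ± 0.81, *Otx2* 2.21 ± 0.62, *Clic6* 2.16 ± 0.61 and *Enpp2* 1.14 ± 0.44. The median over these members was 2.53, against 0.00 over all genes tested. With all 48 libraries in 1 fit, which estimates the spread from all groups, 6 of 9 members were called (*Ttr*, *Folr1*, *Slc4a5*, *Kcnj13*, *Clic6* and *Otx2*, against 0.681% of 15570 genes). DESeq2 gave no adjusted p for any member in this comparison.

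A single library, GABA-CB1-KO open field replicate 4, set the size of these differences. Without it *Ttr* was 0.42 ± 0.27, with adjusted p = 0.621 (edgeR quasi-likelihood test), and *Kcne2* 0.03 ± 0.42, *F5* 0.03 ± 0.28 and *Enpp2* 0.01 ± 0.06. *Otx2* was at 0.75 ± 0.26, *Folr1* at 0.66 ± 0.27 and *Clic6* at 0.65 ± 0.27, with unadjusted p of 0.0126, 0.0284 and 0.0278 and adjusted p of 0.439, 0.472 and 0.470 (edgeR quasi-likelihood test). For *Clic6*, the other 4 GABA-CB1-KO mice had 3.98, 4.01, 4.03 and 7.56 CPM, and the 7 GABA-CB1-WT mice had 2.01 CPM at the lowest, 2.46 CPM at the median and 5.26 CPM at the highest. For *Otx2* they had 0.824, 1.15, 1.50 and 2.35 CPM, against 0.575, 0.866 and 1.19 CPM at the lowest, the median and the highest. The groups overlapped for all 9 members, with and without the library. Ependyma markers were higher in the same comparison in 16 of 16 genes, 0 of them called and 6 with an unadjusted p under 0.05 in edgeR, and in 16 of 16 without the library, with 5 of them at an unadjusted p under 0.05. They were also above 0 in 14 of 16 genes in the GABA-CB1 basal, 14 of 16 in the Glu-CB1 basal and 16 of 16 in the Glu-CB1 open field comparison of genotypes. Endothelium markers were above 0 in 2 of 9 genes with the library. Without it 0 of 9 were above 0, 5 of 9 had an unadjusted p under 0.05 in edgeR, and the median was -0.25. Of all genes, 9.78% had an unadjusted p under 0.05 in edgeR without the library. The part of these cell types in the result was not tested.

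**Figure D4:**
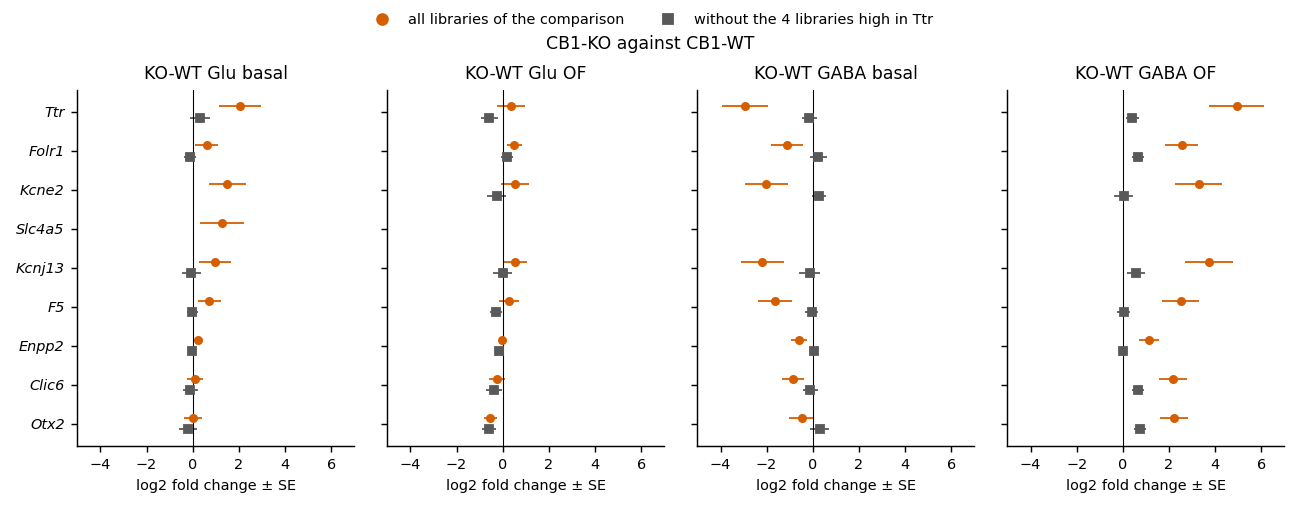
Log2 fold change of each member in CB1-KO against CB1-WT mice (x axis, with bars of 1 SE) in the 4 comparisons of genotypes, with all libraries (orange circles) and without the 4 libraries high in *Ttr* (grey squares). *Ttr* moves from 4.92 to 0.42 in the GABA-CB1 line after the open field and from -2.94 to -0.15 in the basal state, and *Slc4a5* has no point where its counts were too low to be tested.

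The difference between states followed the same libraries. In the GABA-CB1 line the genotype difference after the open field minus that in the basal state was above 0 for all 9 members, and all 9 had an unadjusted p under 0.05 in edgeR (14.6% of all genes did), but 0 of 9 were called (0% of 15374 genes were) and DESeq2 gave no adjusted p for any member. *Ttr* was 7.87 ± 1.69 (SE) on the log2 scale, with adjusted p = 0.198 (edgeR quasi-likelihood test). Here a library on the CB1-WT side of the basal state and one on the CB1-KO side of the open field state add up, and without both *Ttr* was 0.56 ± 0.45, with 0 of 9 members at an unadjusted p under 0.05. In the Glu-CB1 line 0 of 9 were called (0% of 15355 genes were), 0 of 9 had an unadjusted p under 0.05 in edgeR, DESeq2 called 0 of 9, and *Ttr* was -1.69 ± 1.15, against -0.90 ± 0.62 without the 2 libraries.

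For the open field itself, no member was called in either line. In the Glu-CB1 line 0 of 9 were called, against 1.3% of 15355 genes, and *Ttr* was 0.00 ± 0.58 (SE) on the log2 scale, or 0.39 ± 0.31 without the 2 libraries. In the GABA-CB1 line 0 of 9 were called, against 1.03% of 15374 genes, and *Ttr* was 0.61 ± 0.79, or -0.26 ± 0.23 without the 2 libraries. No member had an unadjusted p under 0.05 in either line by edgeR, and DESeq2 called 0 of the 9 and 0 of the 2 members to which it gave an adjusted p.

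Between the lines, the comparisons mirrored the place of the 4 libraries. The genotype difference of the Glu-CB1 line minus that of the GABA-CB1 line in the basal state was above 0 for 9 of 9 members, 5 of them at an unadjusted p under 0.05 in edgeR (8.29% of all genes), and 0 of 9 were called (0.212% of 15570 genes were). *Ttr* was 5.00 ± 1.54 (SE) on the log2 scale with adjusted p = 0.257 (edgeR quasi-likelihood test), or 0.46 ± 0.57 without the libraries. After the open field it was below 0 for 9 of 9 members, 7 of them at an unadjusted p under 0.05 (11.3% of all genes), and 0 of 9 were called (0.34% of 15570 genes were), with *Ttr* at -4.56 ± 1.45 and, without the libraries, at -1.003 ± 0.57. These comparisons use the same libraries as those of the genotypes within each line. DESeq2 gave adjusted p for 3 members in each and called 0 of them. Taking all GABA-CB1 against all Glu-CB1 mice, 0 of 9 members were called (1.25% of 15570 genes were). In edgeR, 2 of 9 had an unadjusted p under 0.05 (12.2% of all genes). DESeq2 called 0 of 3, and *Ttr* was 1.14 ± 0.52, or -0.01 ± 0.20 without the libraries.

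The further list of choroid plexus genes gave the same picture. In GABA-CB1-KO against GABA-CB1-WT mice after the open field, 23 of 23 tested genes were above 0, with a median of 1.05 on the log2 scale and 14 at an unadjusted p under 0.05, and 0 were called by edgeR. Without GABA-CB1-KO open field replicate 4, 14 of 23 were above 0 with a median of 0.03. In the basal state of the GABA-CB1 line, 1 of 23 was above 0 with a median of -0.43, and 11 of 23 with a median of -0.01 without GABA-CB1-WT basal replicate 3. No gene of this list was called in any of the 11 comparisons with all libraries, and 1 was called without the 4 libraries. This was *Car12*, a carbonic anhydrase, at -0.26 ± 0.05 (SE) in GABA-CB1 against Glu-CB1 mice with adjusted p = 0.00707, against 0.0629 with all libraries (edgeR quasi-likelihood test). Of all genes, 146 of 15576 were called in this comparison without the 4 libraries. The lines were bred apart and hold separate ranges of library numbers, so that line cannot be told apart from these. *Car12* had r = -0.01 with *Ttr* over the 44 libraries. In the lists of other cell types, the calls by edgeR within the lines were the CA pyramidal markers *Neurod6* (also known as *Nex*, the gene whose elements drive Cre in the Glu-CB1 line, with a log2 fold change of -0.66 basally and of -0.78 after the open field in that line), *Iyd* (-0.56, Glu-CB1 line after the open field) and *Bok* (-0.52, GABA-CB1 line in the basal state), and the thalamus markers *Prkcd* (-0.58) and *Plekhg1* (-0.42) in the Glu-CB1 line after the open field. Without the 4 libraries, *Iyd* and *Plekhg1* were no longer called between these genotypes, while *Neurod6*, *Bok* and *Prkcd* still were. *Neurod6* was also called in both comparisons of the genotype difference between lines, and *Neurod6*, *Wfs1* and *Plekhg1* in that of the lines. The comparison of lines averages the CB1-WT and CB1-KO mice of each line. The lower *Neurod6* and *Plekhg1* of Glu-CB1-KO mice thus enter it.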

How the data were processed

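RNA-sequencing covered CA tissue of the hippocampus from 48 male mice. The tissue was dissected after removal of the dentate gyrus, and dissections were checked by the authors with RT-qPCR for a CA and a dentate marker. The authors amplified RNA by single primer isothermal amplification (NuGEN), trimmed reads with bbduk, aligned them to mm10 with STAR 2.6.0a and counted them with the reverse-strand setting of featureCounts 1.6.2 (versions per the submitters' processing notes). The deposited values are raw counts per gene, without normalization. They carry no molecular identifiers. Groups were taken from the labels.

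Members and gene lists were chosen with earlier results of these data known. Levels are CPM after TMM normalization over 48 libraries. Comparisons were tested with edgeR 4.0.16 (quasi-likelihood test, filterByExpr) in R 4.3.3, adjusted by Benjamini-Hochberg over all genes, with 12 libraries per comparison of genotypes, 24 for states and 48 between lines. SE was derived from the F statistic. Named are all 9 members, the 20 genes nearest to *Ttr*, list genes that were called with up to 4 examples a list, and *Cnr1*. Genes noted after their values were seen are *Krt18*, *Prr32*, *1810032O08Rik*, the neighbours of *Kcne2* and the pituitary hormone genes. Correlations used permutation of libraries in Python 3.11.15. Alternatives were DESeq2 1.42.0, its size factors, 2 other filters, all 48 libraries in 1 fit, leaving out single libraries, a block for the replicate number, and a covariate for the range in which an animal's number falls. Leaving out the 4 libraries high in *Ttr* was added after the data were seen. No measurement column was left unused (0 columns). Same-numbered CB1-WT and CB1-KO libraries did not deviate together in every pair (correlations of -0.22 to 0.44 in Glu-CB1 basal, -0.49 to 0.34 in GABA-CB1 basal, -0.41 to 0.02 in Glu-CB1 open field and -0.20 to 0.15 in GABA-CB1 open field), so that numbers were not taken to pair mice. The tests were tried on simulated counts. P-values of the comparisons set a difference against the spread between mice within groups. Those of the correlations came from shuffling the 44 libraries regardless of group, or within groups where group means were removed.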

Additional observations from a re-analysis of the deposited data

Results flagged for a closer look

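By Dixon's test, 1 library stood far from the others of its group in 34 of 72 combinations of a member and a group, always as the highest. Of these, 30 fell on the 4 libraries high in *Ttr*, of 36 possible. For normally distributed values chance flags about 1 in 20 groups, and whether this rate holds for CPM of these genes was not tested. The 4 libraries had been set apart by their level of *Ttr*, and members of 1 library are not independent, so that the count is no test of them.

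In GABA-CB1-KO open field replicate 4 all 9 members stood apart. They were *Ttr* at 3870 CPM, *Folr1* at 14.3 CPM, *Kcne2* at 16.9 CPM, *Slc4a5* at 17.2 CPM, *Kcnj13* at 18.7 CPM, *F5* at 33.4 CPM, *Enpp2* at 1303 CPM, *Clic6* at 50.3 CPM and *Otx2* at 14.3 CPM. All 9 did so in GABA-CB1-WT basal replicate 3 as well, with *Ttr* at 1386 CPM, *Folr1* at 7.49 CPM, *Kcne2* at 8.26 CPM, *Slc4a5* at 9.41 CPM, *Kcnj13* at 8.66 CPM, *F5* at 21.9 CPM, *Enpp2* at 824 CPM, *Clic6* at 21.04 CPM and *Otx2* at 4.70 CPM. In Glu-CB1-KO basal replicate 6 these were *Ttr* at 567.5 CPM, *Folr1* at 4.07 CPM, *Kcne2* at 3.86 CPM, *Slc4a5* at 4.04 CPM, *Kcnj13* at 3.19 CPM, *F5* at 9.43 CPM and *Enpp2* at 442 CPM, but neither *Clic6* nor *Otx2*. In Glu-CB1-KO open field replicate 4 they were *Ttr* at 234 CPM, *Kcne2* at 2.13 CPM, *Slc4a5* at 2.07 CPM, *F5* at 6.28 CPM and *Enpp2* at 297 CPM.

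The remaining 4 were *Ttr* at 51.2 CPM and *Slc4a5* at 0.463 CPM in GABA-CB1-WT open field replicate 5, *Kcne2* at 0.607 CPM in Glu-CB1-WT basal replicate 1 and *Slc4a5* at 0.632 CPM in Glu-CB1-WT open field replicate 2. The next highest mice of these groups had 27.97 CPM of *Ttr*, 0.199 CPM of *Slc4a5*, 0.304 CPM of *Kcne2* and 0.227 CPM of *Slc4a5*.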

How the results depend on the processing

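With 1 exception, the number of members called was 0 in each of the 11 comparisons under each alternative that gave adjusted p-values. It was also 0 in all 288 results with 1 library left out, counted per comparison because 1 fit served several comparisons. The exception was the comparison of GABA-CB1-KO and GABA-CB1-WT mice after the open field, where 6 members were called with all 48 libraries in 1 fit. DESeq2 gave no adjusted p for any member there nor for the genotype difference between states of the GABA-CB1 line. Of the members correlated with *Ttr*, 7 passed by r, 6 by rho and 5 with group means removed. Without the 4 libraries, the sign turned for 6 of 7 members between genotypes in the Glu-CB1 line basally, 4 of 8 after the open field, 4 of 8 in the GABA-CB1 line basally and 0 of 8 after the open field, and for 7 of 9 (GABA-CB1) and 3 of 9 (Glu-CB1) between states, 6 of 9 between lines, 2 of 9 (GABA-CB1) and 3 of 9 (Glu-CB1) for genotype by state, and 4 of 9 (basal) and 0 of 9 (open field) for the genotype difference between lines. Among these were, in the basal state of the GABA-CB1 line, *Folr1* (0.24), *Kcne2* (0.26), *Enpp2* (0.057) and *Otx2* (0.29), and *Ttr* between genotypes of the Glu-CB1 line after the open field (-0.59), between states in the Glu-CB1 line (0.39) and the GABA-CB1 line (-0.26), and between lines (-0.0084). The number range of the animals as a covariate gave 0.22 for *Ttr* between states of the Glu-CB1 line. Leaving out 1 library at a time gave log2 fold changes of *Ttr* from -0.48 to 0.87 between states of the Glu-CB1 line, -1.65 to 2.00 between states of the GABA-CB1 line, -0.59 to 0.60 between genotypes of the Glu-CB1 line after the open field and -2.65 to 0.047 for the genotype difference between its states. Between genotypes of the GABA-CB1 line in the basal state it gave -1.35 to 0.24 for *Folr1*, -2.24 to 0.26 for *Kcne2*, -0.72 to 0.057 for *Enpp2* and -0.89 to 0.29 for *Otx2*. The cause was not tested where the alternative did not leave out libraries. Members with a median of 6 to 12 reads in most libraries limit what a comparison can show.

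With the replicate number as a block, 0 members were called in each of the 11 comparisons, and over all genes 8 in place of 37 were called between genotypes of the GABA-CB1 line in the basal state and 3 in place of 41 in the Glu-CB1 line after the open field. The block turned *Ttr* to -0.14 between genotypes of the Glu-CB1 line after the open field and to 0.50 between its states. Mice share only a number here.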

Other observations

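Pituitary hormone transcripts varied as widely as the members, with their highest levels in other libraries except for *Pomc*. Among the 20 genes with the widest spread of log2 CPM within groups over 48 libraries were *Gh* (growth hormone), *Prl* (prolactin), *Pomc* (the precursor of ACTH) and *Cga* (the common subunit of glycoprotein hormones), beside the members *Ttr*, *Slc4a5*, *Kcne2* and *Kcnj13*. They were noted after their values were seen. *Gh* had a median of 12.8 CPM and reached 162 CPM in Glu-CB1-KO basal replicate 7 and 157 CPM in GABA-CB1-KO basal replicate 3, and *Prl*, with a median of 3.96 CPM, reached 30.3 and 41.8 CPM in the same 2 libraries. Of the 4 libraries with high *Ttr*, Glu-CB1-KO open field replicate 4 ranked 4 of 48 in *Gh*, 5 in *Prl* and 1 in *Pomc* (24.95 CPM). The other 3 ranked between 25 and 42 in *Gh* and between 33 and 46 in *Prl*, while Glu-CB1-KO basal replicate 6 ranked 8 in *Pomc* (8.61 CPM, against a median of 2.22 CPM). No cause was tested for this variation.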
